A study of Mus musculus with 24 samples.

Results

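Ubiquitin ligases choose the proteins that the proteasome destroys, and a small set of them is used by skeletal muscle when it loses mass. A ligase (E3) brings a substrate next to a ubiquitin-loaded conjugating enzyme (E2), which was itself charged by an activating enzyme (E1). The genes of muscle RING-finger 1 (Trim63) and atrogin-1 (Fbxo32) are known for rising together in disuse, denervation, and fasting, where FoxO transcription factors drive them, and insulin or IGF-1 signaling through Akt restrains FoxO. The 10 genes described here were picked by name for this function, as Trim63, Trim55, Trim54, Fbxo32, Fbxo40, Fbxo30, Fbxo21, Asb2, Nedd4, and Cblb, out of 56941 genes listed. All 10 had counts and all 10 were among the 13315 genes that passed the filter on low counts. Because they were picked with earlier results of these libraries known, their values and adjusted p are a description of these libraries and not independent evidence.

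The libraries came from C2C12 cells, a mouse myoblast line that fuses into contracting myotubes, and every library in every group carried the blue light-gated channel ChR2 fused to tdTomato. Tissues were differentiated in horse serum with IGF-1 on grooved fibrin gels and received 60 min of light pulses daily at 1, 4, or 10 Hz, while control tissues were not stimulated. Each of the 4 groups had 6 libraries, which the study calls biological replicates, and all came from this 1 engineered line. The sources used here do not give the time between the last stimulation and lysis, and the study notes that unstimulated tissues also twitch spontaneously.

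In the tissues, the 10 ligase genes did not move in 1 direction. At 1 and 4 Hz, Fbxo32, Fbxo30, and Cblb were higher than in the controls by 1.57- to 1.77-fold, while Fbxo40, Trim63, and Trim54 were lower by 1.22- to 1.59-fold. At 10 Hz the 3 genes that had been higher differed from the control by at most 1.05-fold, while Fbxo40 was 1.53-fold lower and Trim63 1.45-fold lower. Trim55, Fbxo21, and Nedd4 differed by at most 1.08-fold at any of the 3 frequencies. These values are levels in CPM (counts relative to the total of the library) after TMM scaling, compared in 1 edgeR fit of 24 libraries; a gene counted as changed if its adjusted p (Benjamini-Hochberg) was under 0.05 over all tested genes and its absolute log2(fold change) over 0.5. By that rule Fbxo32, Fbxo30, and Cblb were changed at 1 and 4 Hz, and Fbxo40 at 1 and 10 Hz but not at 4 Hz. Trim63 and Trim54 were not called changed at any frequency. Every adjusted p below is from the quasi-likelihood test of that fit unless another test is named, log2(fold change) is the first-named group minus the second, and ± is the standard error for a log2(fold change) and the SD over 6 libraries for a level. RNA of whole tissues was measured, so fewer cells of a type and less RNA per cell cannot be told apart.

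Some facts of the libraries touch all of these values. Totals ran from 8052369 to 18159144 estimated counts. Defining myotube genes were abundant, with Acta1 (skeletal actin) at 4332 to 7795 CPM in the 24 libraries, although the sample labels call the cells myoblasts. Pecam1 of endothelium, Ptprc of leukocytes, and Adipoq of fat cells reached at most 5, 1, and 1 counts in any library, whereas Dcn, a fibroblast marker, was at 117 to 285 CPM. Some markers of other cells moved with stimulation, and their part in the ligase values was not tested. Among 10 markers of undifferentiated or cycling myoblasts, whose sum was 43.1 to 70.9 CPM in unstimulated tissues, 58.4 to 96.6 CPM at 1 Hz, 56.3 to 68.7 CPM at 4 Hz, and 54.7 to 83.9 CPM at 10 Hz, the log2(fold change) at 1 and 4 Hz was -1.58 and -1.53 for Pax7 but 1.32 and 1.17 for Myf5. The fibroblast genes also went opposite ways, with 0.39 and 0.43 for Dcn and -0.70 and -0.71 for Col1a1. The summed level of 24 myotube markers differed from the control on the log2 scale by 0.029 at 1 Hz (two-sided exact permutation test, adjusted p of 0.835), 0.25 at 4 Hz (adjusted p of 0.039), and -0.15 at 10 Hz (adjusted p of 0.117). In summed TPM the differences were -0.14, -0.0061, and -0.19, and only that at 10 Hz passed the same exact permutation test (adjusted p of 0.0325). The part of myotube content in the ligase values was not tested beyond rescaling to these markers, and values after that rescaling are given for each ligase gene whose call against the control it changed. The median ratio of TPM (which divides by transcript length) to CPM was 0.482, 0.48, and 0.434 in 1 Hz replicates 4 and 6 and 4 Hz replicate 3, below the 0.531 to 0.706 of the other 21 libraries. The ratio also moved with the group, from 0.673 ± 0.0209 in the controls to 0.590 ± 0.0885 at 1 Hz, 0.547 ± 0.0648 at 4 Hz, and 0.664 ± 0.0458 at 10 Hz, and every 4 Hz library was below every control. The 3 libraries with the lowest ratio (1 Hz replicates 4 and 6 and 4 Hz replicate 3) also differed in composition. Mitochondrial genes held 3.97%, 4.87%, and 8.90% of their counts, against 1.98 ± 0.497% in the controls. Ribosomal protein genes held 7.44%, 7.80%, and 8.07%, against 4.94 ± 0.29%. Others came near single values, with 4.34% mitochondrial in 4 Hz replicate 6 and 7.96% ribosomal protein in 4 Hz replicate 1. Results that change without those 3 libraries are given as such.

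The start sites of 8 of the 10 genes are in the RefSeq promoter table, which gives 11 windows of 300 bases (250 before and 50 after a start); Trim55 and Fbxo32 were not matched. The table was made on GRCm38.p6, and each window was found exactly once on its chromosome of GRCm39, whose coordinates are used here. The 250 bases before the start in that table are printed for the 5 matched genes with an adjusted p under 0.05 at 1 Hz, to show the letters there. The GENCODE positions of Fbxo30 and Cblb begin earlier, at 11156770 and 51851588. Their printed windows thus lie inside the gene by that annotation, and the bases before its start were not read. Fbxo32, one of the higher genes, has no window, and no difference between higher and lower genes was tested. Capitals mark a FoxO element (GTAAACA or its reverse TGTTTAC) or an E-box of the letters CAGCTG, which reads the same on both strands and is of the kind bound by myogenic factors such as myogenin. All lie 5′ to 3′ on the strand of the gene.
Trim63, chr4:134042181-134042430, plus strand: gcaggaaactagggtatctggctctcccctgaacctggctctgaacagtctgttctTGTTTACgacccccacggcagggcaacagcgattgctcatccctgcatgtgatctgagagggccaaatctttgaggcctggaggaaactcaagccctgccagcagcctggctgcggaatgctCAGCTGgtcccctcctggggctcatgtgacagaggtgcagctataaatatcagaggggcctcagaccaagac
Trim54, chr5:31273706-31273955, plus strand: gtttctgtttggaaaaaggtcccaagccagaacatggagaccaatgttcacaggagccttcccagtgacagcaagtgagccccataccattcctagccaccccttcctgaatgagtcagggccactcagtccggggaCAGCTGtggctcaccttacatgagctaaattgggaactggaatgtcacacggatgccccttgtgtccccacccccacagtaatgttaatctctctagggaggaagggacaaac
Fbxo40, chr16:36810830-36811079, minus strand: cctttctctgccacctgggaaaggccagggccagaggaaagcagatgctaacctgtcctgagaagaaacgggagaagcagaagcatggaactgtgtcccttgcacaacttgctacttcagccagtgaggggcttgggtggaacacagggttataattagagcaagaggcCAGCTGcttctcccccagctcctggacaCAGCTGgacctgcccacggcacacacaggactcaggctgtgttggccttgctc
Fbxo30, chr10:11157081-11157330, plus strand: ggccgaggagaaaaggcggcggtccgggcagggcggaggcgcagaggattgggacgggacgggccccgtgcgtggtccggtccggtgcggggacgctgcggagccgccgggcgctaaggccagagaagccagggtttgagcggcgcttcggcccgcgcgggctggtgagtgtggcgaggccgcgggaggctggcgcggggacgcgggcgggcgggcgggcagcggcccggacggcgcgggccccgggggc
Cblb, chr16:51851662-51851911, plus strand: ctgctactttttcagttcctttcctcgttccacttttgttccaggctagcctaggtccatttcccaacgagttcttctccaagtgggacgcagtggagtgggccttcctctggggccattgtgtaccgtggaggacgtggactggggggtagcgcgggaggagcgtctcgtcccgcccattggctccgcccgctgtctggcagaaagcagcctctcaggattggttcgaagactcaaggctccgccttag

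The FoxO element was read in 1 of the 11 windows, 194 bases before the start of Trim63, and it is in 3.65% of 32851 promoters of the same length. The E-box was read in 6 of the 11 windows, against 16.3% of all promoters. It lies 72 bases before the start of Trim63, 113 before that of Trim54, and both 81 and 53 before the start of Fbxo40 shown. It is also in the second window of Fbxo40 (89 bases before that start), in 1 window of Nedd4 (139 before), and in 1 of Asb2 (21 bases after). The windows of Fbxo30, Cblb, and Fbxo21 hold neither motif, and the letters CTA, NNNN, and TAG in a row, a MEF2-type site, are in none of the 11 windows (3.69% of all promoters). No motif overlapped another, and a match or its absence describes letters in these windows only.

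The levels of the 10 genes differed widely at rest. In TPM, the scale on which genes can be compared, Nedd4 was highest in the controls at 202 ± 19.6, and Fbxo32 was lowest at 2.94 ± 0.748, a difference of 68.5-fold. Between them came Trim54 (82.6 ± 7.07 TPM), Trim63 (68.3 ± 9.14), Fbxo30 (35.8 ± 5.67), Trim55 (34.0 ± 2.62), Fbxo40 (30.9 ± 4.95), Asb2 (18.7 ± 2.75), Fbxo21 (11.1 ± 0.958), and Cblb (8.08 ± 0.993). The 6 control libraries of neighbors in that order overlapped for Trim54 and Trim63, for Fbxo30 and Trim55, and for Trim55 and Fbxo40, and no other neighbors overlapped. So the transcript of Trim63 was 23.2 times as abundant as that of Fbxo32, its usual companion, and the latter sat at the 18.9th percentile of all tested genes.

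**Figure D1:**
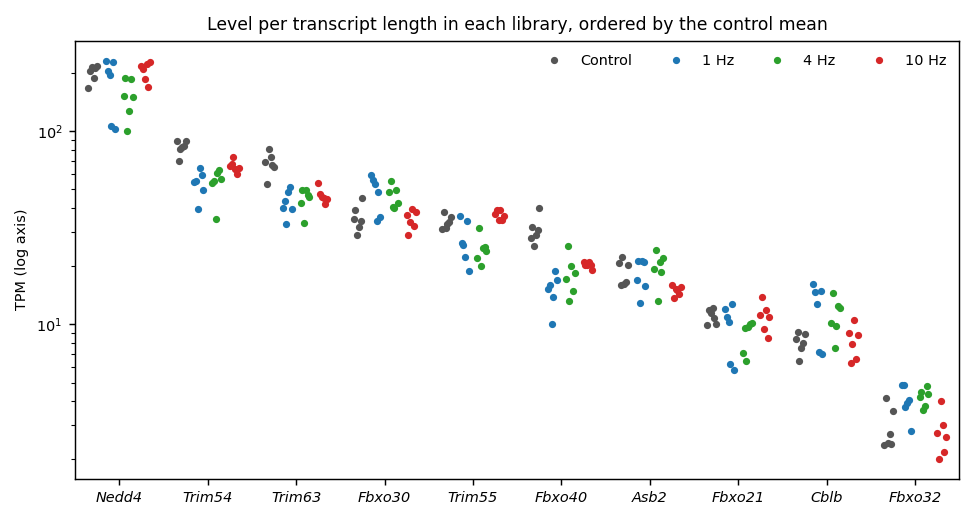
Level of the 10 ligase genes in TPM (log axis) in each of 24 libraries, colored by group and ordered by the control mean; each point is 1 library. Nedd4 lies above the other genes and Fbxo32 lies lowest, at 2.39 to 4.15 TPM in the controls.

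At 1 Hz, 4 of the 10 genes were changed (3 higher and 1 lower), where 14.9% of all 13315 tested genes were changed (7.19% higher and 7.74% lower). By adjusted p alone 6 were called, 3 in each direction, against a background of 37.3% (19.2% higher and 18.1% lower). At 4 Hz, 3 were changed, all higher, with 25.1% of all tested genes changed (12.8% higher and 12.3% lower), and by adjusted p alone 7 were called (4 higher and 3 lower) against 51.4% (27.5% higher and 23.9% lower). At 10 Hz, 1 was changed (Fbxo40, lower), where 5 genes of all tested, or 0.0376%, were changed (0.0225% lower). That count is a description, since the fall of Fbxo40 at 10 Hz was known when the genes were picked. The 10 genes had a median log2(fold change) of -0.027, -0.034, and -0.058 at 1, 4, and 10 Hz, against 0.041, 0.061, and 0.0067 over all tested genes.

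The split between higher and lower calls depends on the scale. On log2(TPM + 1) with limma, the median of all tested genes shifted by -0.14 at 1 Hz, -0.21 at 4 Hz, and -0.014 at 10 Hz, and the changed genes of the whole table went from 958 higher and 1030 lower to 198 higher and 1710 lower at 1 Hz. On that scale 3 ligase genes were changed at 1 Hz and 3 at 4 Hz, all lower (Trim63, Trim54, and Fbxo40). With counts scaled to the myotube markers instead, 3 were higher and 2 lower at 1 Hz, and 2 higher and 3 lower at 4 Hz. The direction of the 6 genes named above was the same on all 3 scales at 1 and 4 Hz and differed only in which of them passed the threshold.

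**Figure D2:**
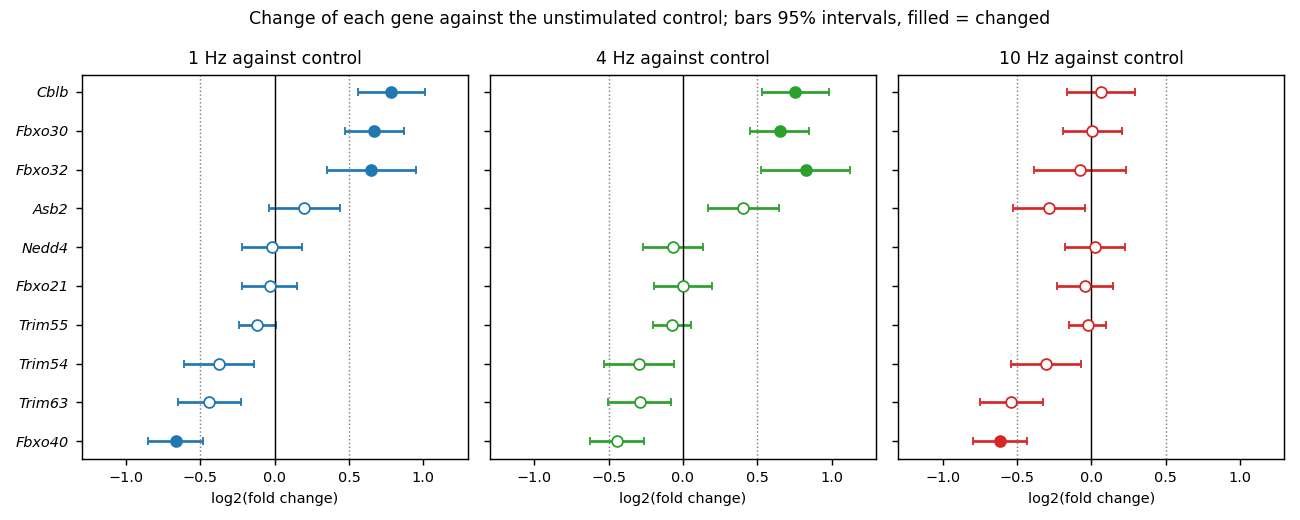
Log2(fold change) of each ligase gene against the unstimulated control at 1, 4, and 10 Hz in the edgeR fit (6 libraries per group); bars are 95% intervals, dotted lines mark an absolute log2(fold change) of 0.5, and filled points were called changed. Cblb, Fbxo30, and Fbxo32 lie to the right at 1 and 4 Hz and near 0 at 10 Hz, and Fbxo40 lies to the left in all 3 panels.

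The muscle RING-finger (MuRF) proteins are a family of 3 related ligases of the sarcomere and the microtubules. Trim63 (MuRF1, chr4:134042393-134056948 on GRCm39, plus strand), which is known to ubiquitinate thick-filament proteins including myosin heavy chains, ran from 61.6 CPM through a median of 77.5 to 86.7 CPM in the 6 control libraries. It ran from 41.7 (median 54.9) to 77.1 CPM at 1 Hz, from 59.4 (61.0) to 72.9 CPM at 4 Hz, and from 48.0 (52.9) to 59.2 CPM at 10 Hz. The 10 Hz libraries thus all lay below the lowest control, which held for 0.864% of all tested genes, while at 1 and 4 Hz 4 of 6 did.

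The log2(fold change) of Trim63 was -0.44 ± 0.108 at 1 Hz (adjusted p of 0.00253), -0.29 ± 0.108 at 4 Hz (adjusted p of 0.0267), and -0.54 ± 0.109 at 10 Hz (adjusted p of 0.0781). On this scale it was therefore not called changed at any frequency, under the fold threshold at 1 and 4 Hz and over the p threshold at 10 Hz. Scaled to the myotube markers it was called at 1 Hz (-0.50, adjusted p of 0.00252) and 4 Hz (-0.55, adjusted p of 0.000311), and likewise on log2(TPM + 1), at -0.67 (adjusted p of 0.000171) and -0.60 (adjusted p of 0.000144). At 10 Hz it was the gene with the sixth smallest p of all tested, and DESeq2 (adjusted p of 0.00184), edgeR without the filter on low counts (adjusted p of 0.0202), and edgeR with only those 2 groups (adjusted p of 0.00583) called it; the range over the alternatives went up to an adjusted p of 0.367 when scaled to the myotube markers. At 1 Hz it was called without the 3 libraries of low TPM per CPM (-0.63, adjusted p of 3.49e-05) and without 1 Hz replicate 4 alone (-0.58) or replicate 6 alone (-0.50).

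Trim54 (MuRF3, chr5:31273911-31298846, plus strand), known as a stabilizer of microtubules, had a similar profile. Its control libraries ran from 58.8 (median 68.5) to 76.1 CPM, against 36.5 (48.5) to 75.6 CPM at 1 Hz, 45.5 (55.9) to 65.5 CPM at 4 Hz, and 50.9 (54.3) to 66.1 CPM at 10 Hz. At 1, 4, and 10 Hz, 5, 4, and 5 of 6 libraries lay below every control. Its log2(fold change) was -0.38 ± 0.12 at 1 Hz (adjusted p of 0.0159), -0.29 ± 0.12 at 4 Hz (adjusted p of 0.043), and -0.30 ± 0.12 at 10 Hz (adjusted p of 0.504). Without the 3 libraries of low TPM per CPM it was called changed at 1 Hz, at -0.60 (adjusted p of 5.39e-05), and so it was without 1 Hz replicate 4 alone (-0.54). It was also called at 4 Hz when scaled to the myotube markers (-0.54, adjusted p of 0.000107) and at both frequencies on log2(TPM + 1), at -0.62 (adjusted p of 0.000645) and -0.62 (adjusted p of 0.000195). The exons of Trim54 share 869 bases with Mpv17 on the opposite strand, whose mean of 464 estimated counts per library is close to the 649 of Trim54, and although the study used a directional library kit, how counting used the strand is not given in the sources used here. Mpv17 differed by 0.16 ± 0.0687 at 1 Hz (adjusted p of 0.0751) and 0.17 ± 0.0691 at 4 Hz (adjusted p of 0.0444), opposite in sign to Trim54.

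Trim55 (MuRF2, chr3:19698571-19746771, plus strand) differed little in CPM. It was at 45.6 ± 3.29 CPM in the controls, 42.1 ± 2.06 at 1 Hz, and 43.3 ± 1.56 at 4 Hz, against 44.9 ± 3.59 at 10 Hz, and the groups overlapped. Its log2(fold change) was -0.12 (95% interval -0.24 to 0.0099) at 1 Hz, -0.075 (-0.20 to 0.052) at 4 Hz, and -0.025 (-0.15 to 0.10) at 10 Hz. In limma on log2(TPM + 1) it was -0.46 at 4 Hz (adjusted p of 0.00448), against the shift of -0.21 of all genes on that scale. Of the summed TPM of the 3 MuRF genes, Trim63 held 36.9 ± 3.14% in the controls and 31.1 ± 1.64% at 10 Hz, Trim55 held 18.5 ± 2.67% and 24.7 ± 1.42%, and Trim54 held 44.6 ± 2.07% and 44.2 ± 2.03%. The share of Trim63 at 10 Hz reached 34.3% in its highest library, which overlaps the lowest control at 33.2%. The 3 genes are related in sequence. Their estimated counts were whole numbers in all 24 libraries, and whether any reads fit more than 1 of them was not tested.

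The next 4 members are F-box proteins, the part of an SCF ligase (Skp1, cullin 1, Rbx1, and the F-box protein) that holds the substrate. Fbxo32 (atrogin-1, chr15:58039275-58078741, minus strand), known to target MyoD and the initiation factor eIF3f, ran from 10.4 (median 11.9) to 19.3 CPM in the controls and from 17.9 (21.0) to 25.2 CPM at 1 Hz. It ran from 22.2 (23.97) to 25.7 CPM at 4 Hz and from 9.03 (11.8) to 19.7 CPM at 10 Hz. All 6 libraries at 4 Hz lay above the highest control (12.9% of all tested genes did so), as did 3 of 6 at 1 Hz, while the 10 Hz libraries overlapped the controls.

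The log2(fold change) of Fbxo32 was 0.65 ± 0.153 at 1 Hz (1.57-fold, adjusted p of 0.00181) and 0.82 ± 0.154 at 4 Hz (1.77-fold, adjusted p of 0.000102). At 10 Hz it was -0.075 with a 95% interval of -0.38 to 0.23. The values on log2(TPM + 1) were 0.36 at 1 Hz (adjusted p of 0.0564) and 0.42 at 4 Hz (adjusted p of 0.0177), both under the fold threshold, while the median of all genes fell by 0.14 and 0.21. For a gene at 2.94 TPM in the controls, the added 1 itself shrinks the log2(fold change). On log2(TPM + 0.1), Fbxo32 was called higher at 4 Hz but not at 1 Hz. The spread between libraries of the same group was largest for this gene in the controls and at 10 Hz, with a coefficient of variation of 27.1% and 28.6%, against 6.16% at 4 Hz. Its exons share 435 bases with a noncoding gene on the opposite strand, Gm15943, which had at most 1 count in any library.

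Fbxo40 (chr16:36783822-36810902, minus strand) is a muscle-specific F-box protein known to target the insulin receptor substrate IRS1 when IGF-1 signaling is active. It ran from 79.1 (median 81.7) to 102.9 CPM in the controls, from 37.1 (54.6) to 64.7 CPM at 1 Hz, from 56.6 (62.1) to 68.3 CPM at 4 Hz, and from 51.0 (56.2) to 58.9 CPM at 10 Hz. Every stimulated library, at each of the 3 frequencies, lay below every control. Fbxo40 was the only gene of the 10 with that property, and 8.58%, 14.7%, and 0.864% of all tested genes had every library below the range of the controls at 1, 4, and 10 Hz.

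The log2(fold change) of Fbxo40 was -0.67 ± 0.0928 at 1 Hz (1.59-fold lower, adjusted p of 5.46e-06) and -0.44 ± 0.0927 at 4 Hz (1.36-fold lower, adjusted p of 0.000354), where it fell short of the fold threshold. At 4 Hz it was called without replicate 3 (-0.50), on log2(TPM + 1) at -0.75 (adjusted p of 0.000144), and scaled to the myotube markers at -0.69 (adjusted p of 1.35e-05). At 10 Hz the description is -0.62 ± 0.0929 (1.53-fold lower). That value was -0.46 when scaled to the myotube markers and -0.56 on log2(TPM + 1), and it was not called on either scale. The control mean includes replicate 6 at 102.9 CPM, above the 79.1 to 84.9 CPM of the other 5.

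Fbxo30 (MUSA1, chr10:11156770-11173806, plus strand) is known as an atrophy ligase that BMP-Smad signaling holds down. It ran from 70.8 (median 82.6) to 109.5 CPM in the controls, from 112.9 (138.2) to 156.0 CPM at 1 Hz, from 106.6 (137.5) to 153.1 CPM at 4 Hz, and from 70.2 (90.0) to 93.8 CPM at 10 Hz. All 6 libraries at 1 Hz, where 5.55% of all tested genes did so, and 5 of 6 at 4 Hz lay above the highest control. Fbxo30 had a log2(fold change) of 0.67 ± 0.102 at 1 Hz (1.59-fold, adjusted p of 1.7e-05) and 0.65 ± 0.102 at 4 Hz (1.57-fold, adjusted p of 1.18e-05). At 10 Hz it was 0.0080, with a 95% interval of -0.19 to 0.21. By limma on log2(TPM + 1) it was 0.40 (adjusted p of 0.028) and 0.37 (adjusted p of 0.0277) at 1 and 4 Hz, under the fold threshold, and scaled to the myotube markers the value at 4 Hz was 0.42 (adjusted p of 0.0256), under it as well.

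Fbxo21 (SMART, chr5:118114795-118148269, plus strand), another F-box protein that atrophy studies place under FoxO, did not follow Fbxo32 or Fbxo30. It was at 26.6 ± 2.29 CPM in the controls, 26.1 ± 4.11 at 1 Hz, and 26.6 ± 2.74 at 4 Hz, against 25.9 ± 1.99 at 10 Hz. The 95% interval of its log2(fold change) was -0.22 to 0.15 at 1 Hz, -0.19 to 0.19 at 4 Hz, and -0.23 to 0.15 at 10 Hz. The groups overlapped throughout, and the intervals leave out a change as large as that of Fbxo30 at 1 and 4 Hz.

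**Figure D3:**
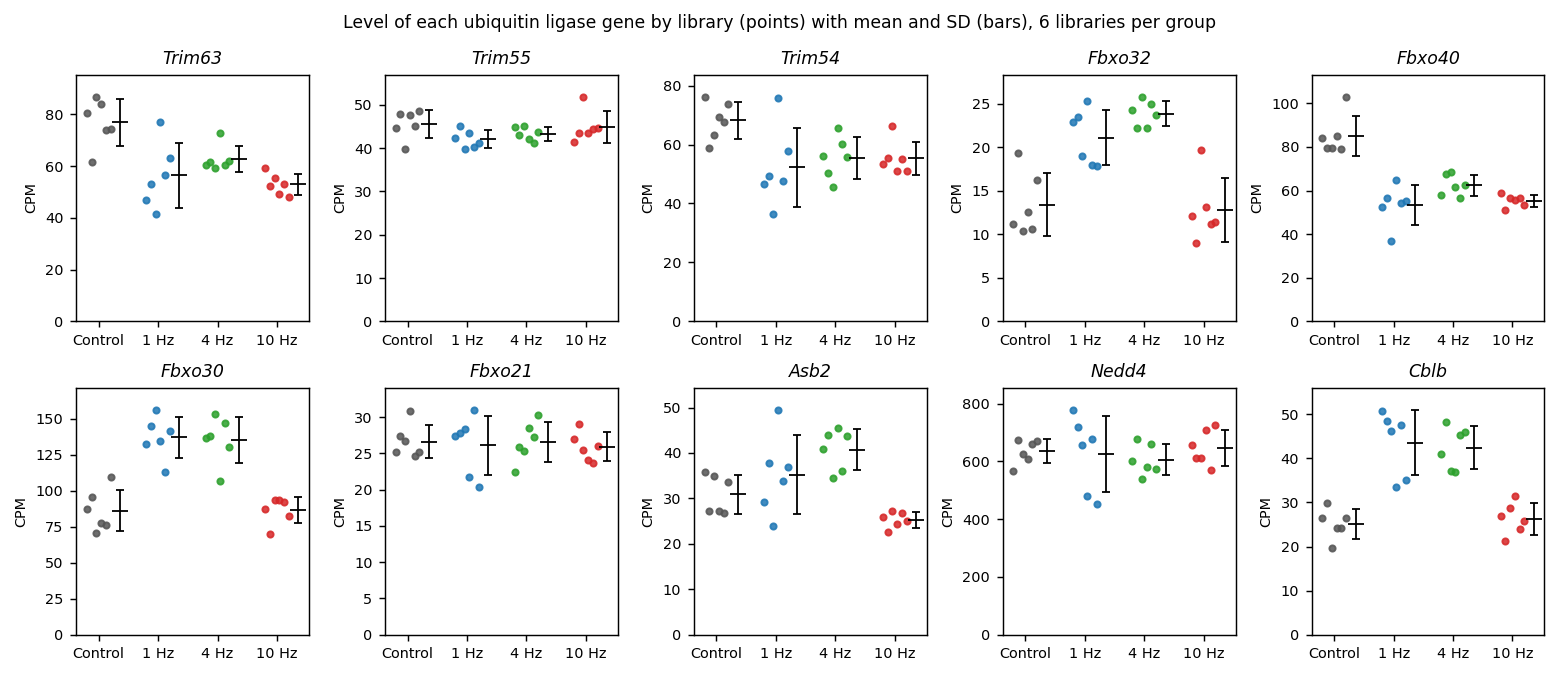
Level of each of the 10 ligase genes in CPM in 6 libraries per group (points), with the mean and SD (bars); axes start at 0. Fbxo40 shows no overlap between the controls (79.1 to 102.9 CPM) and any stimulated group, and Cblb and Fbxo30 separate 1 and 4 Hz from the control and 10 Hz libraries with few exceptions.

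The last 3 members belong to other ligase classes. Asb2 (chr12:103283687-103334012, minus strand) holds substrates for a cullin 5 ligase and is known to lower filamins during muscle differentiation. It ran from 26.7 (median 30.4) to 35.7 CPM in the controls, from 24.01 (35.4) to 49.4 CPM at 1 Hz, from 34.5 (42.3) to 45.5 CPM at 4 Hz, and from 22.6 (25.4) to 27.2 CPM at 10 Hz. At 4 Hz 5 of 6 libraries lay above every control, and at 10 Hz 4 of 6 lay below. For Asb2 the log2(fold change) was 0.20 ± 0.122 at 1 Hz (adjusted p of 0.204), 0.40 ± 0.122 at 4 Hz (adjusted p of 0.00756), and -0.28 ± 0.124 at 10 Hz (adjusted p of 0.549). On log2(TPM + 1) the value at 1 Hz turned to -0.042 and that at 4 Hz was 0.065 (adjusted p of 0.73), and scaled to the myotube markers the latter was 0.16 (adjusted p of 0.273).

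Nedd4 (chr9:72569596-72657134, plus strand), a HECT-type ligase with Notch1 among its known targets, was the most abundant of the 10 and was called in no comparison. It was at 635 ± 41.3 CPM in the controls, 627 ± 132 at 1 Hz, and 606 ± 54.0 at 4 Hz, against 647 ± 60.8 at 10 Hz. The 1 Hz libraries spread from 452 to 777 CPM, wider than the 569 to 674 CPM of the controls. The 95% interval of the log2(fold change) was -0.22 to 0.19 at 1 Hz, -0.27 to 0.14 at 4 Hz, and -0.18 to 0.23 at 10 Hz.

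Cblb (chr16:51851588-52028729, plus strand), a RING ligase known to degrade IRS1 in unloaded muscle, had the largest log2(fold change) of the 10 at 1 Hz. It ran from 19.6 (median 25.3) to 29.9 CPM in the controls, from 33.4 (46.8) to 50.6 CPM at 1 Hz, from 36.9 (43.2) to 48.2 CPM at 4 Hz, and from 21.1 (26.3) to 31.4 CPM at 10 Hz. Every library at 1 and 4 Hz lay above every control (5.55% and 12.9% of all tested genes did so), and the 10 Hz libraries overlapped the controls. For Cblb the log2(fold change) was 0.79 ± 0.114 at 1 Hz (1.72-fold, adjusted p of 9.5e-06) and 0.76 ± 0.115 at 4 Hz (1.69-fold, adjusted p of 7.98e-06), against 0.067 (95% interval -0.16 to 0.29) at 10 Hz. With limma on log2(TPM + 1) it was 0.47 (adjusted p of 0.0547) and 0.40 (adjusted p of 0.078) at 1 and 4 Hz, not called. The 2 ligases known to act on IRS1, Cblb and Fbxo40, were thus on opposite sides of the control at 1 and 4 Hz.

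Ratios within a library do not depend on its depth and show unequal change only. The TPM ratio of Fbxo30 to Fbxo40 was 1.10 to 1.25 in the controls, 2.14 to 5.34 at 1 Hz, 2.02 to 3.35 at 4 Hz, and 1.43 to 2.00 at 10 Hz, so that no stimulated library overlapped the controls. That separation follows in part from levels given above, since Fbxo40 in CPM lay below every control in every stimulated library. How often other pairs of genes separate was not counted. The ratio of Cblb to Fbxo40 was 0.264 ± 0.0269 in the controls, 0.827 ± 0.324 at 1 Hz, and 0.619 ± 0.118 at 4 Hz, against 0.404 ± 0.0753 at 10 Hz. The ratio of Fbxo32 to Trim63 was 0.0449 ± 0.0181 in the controls, 0.0959 ± 0.0215 at 1 Hz, and 0.0951 ± 0.0112 at 4 Hz, against 0.0597 ± 0.0158 at 10 Hz. For that pair the groups overlapped, because the highest control reached 0.0775.

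**Figure D4:**
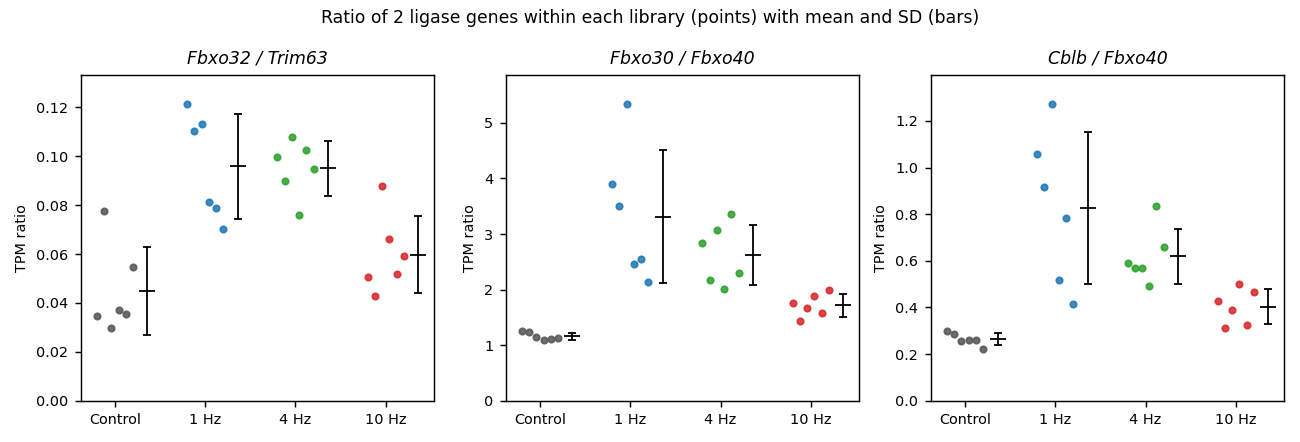
TPM ratio of Fbxo32 to Trim63, Fbxo30 to Fbxo40, and Cblb to Fbxo40 within each of 24 libraries (points), with the mean and SD of 6 libraries per group (bars); axes start at 0. The ratio of Fbxo30 to Fbxo40 is 1.10 to 1.25 in the controls and at least 1.43 in every stimulated library.

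The frequencies were also compared with each other. At 10 Hz against 4 Hz, 4 of the 10 genes were changed, all lower (21.2% of all tested genes were changed, 10.6% lower). They were Fbxo32 at -0.90 ± 0.157 (adjusted p of 6.79e-05), Asb2 at -0.69 ± 0.124 (adjusted p of 9.7e-05), Cblb at -0.69 ± 0.115 (adjusted p of 4.21e-05), and Fbxo30 at -0.64 ± 0.102 (adjusted p of 2.31e-05). For these 4 and for Trim63, all 6 libraries at 10 Hz lay below all 6 at 4 Hz, where 8.1% of all tested genes did. For Trim63 that direction turned on other scales, to 0.064 on log2(TPM + 1) and 0.16 scaled to the myotube markers. Only Fbxo32 was called in this comparison when scaled to the myotube markers (-0.52, adjusted p of 0.0108). On log2(TPM + 1) none of these 4 was called, and Trim55 was called higher (0.58, adjusted p of 0.000861).

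At 10 Hz against 1 Hz, 3 of the 10 were changed, all lower (10.8% of all tested genes were changed, 4.99% lower). They were Fbxo32 at -0.73 ± 0.156 (adjusted p of 0.00132), Cblb at -0.72 ± 0.115 (adjusted p of 6.01e-05), and Fbxo30 at -0.66 ± 0.102 (adjusted p of 4.1e-05), and Asb2 was at -0.48 ± 0.124 (adjusted p of 0.00523). All 3 calls ended on log2(TPM + 1), where Fbxo32, Cblb, and Fbxo30 were at -0.43, -0.46, and -0.42, and 1 call was made on log2(TPM + 0.1). Fbxo40 and Trim63 differed by 0.051 (95% interval -0.13 to 0.23) and -0.096 (-0.31 to 0.12), so their levels at 10 and 1 Hz could not be told apart within those intervals. At 4 Hz against 1 Hz, 0 of the 10 and 0 of all tested genes (0%) were changed by edgeR, with 1 of the 10 (Fbxo40, 0.23 ± 0.0936) and 1465 of all (11%) at an unadjusted p under 0.05. DESeq2 called 0 of the 8 to which it gave an adjusted p (Fbxo32 and Fbxo21 had none) and 1 gene in the whole table. Without the 3 libraries of low TPM per CPM, 0 of the 10 and 133 genes of the whole table were called.

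Around the ligases stand the genes of ubiquitin, the shared enzymes, the partners, and the regulators, taken from 7 lists with 164 genes in all. Of 22 genes of ubiquitin, E1, and E2 enzymes, 1 was higher and 1 lower at 1 Hz, 2 were higher and 1 lower at 4 Hz, and 0 were changed at 10 Hz. These are 9.09% at 1 Hz and 13.6% at 4 Hz, below the 14.9% and 25.1% of all tested genes. Ube2d1, an E2 enzyme of the family that MuRF1 is known to use, went from 78.3 (median 89.2) to 99.1 CPM in unstimulated tissues to 53.9 (63.7) to 68.0 CPM at 1 Hz and 47.2 (55.7) to 69.0 CPM at 4 Hz. It did not overlap the controls at either frequency, where 8.58% and 14.7% of all tested genes had every library below them. Its log2(fold change) was -0.51 ± 0.0836 at 1 Hz (adjusted p of 4.26e-05) and -0.65 ± 0.0842 at 4 Hz (adjusted p of 8.81e-07). Ubb, a polyubiquitin gene, was higher at 4 Hz (0.58 ± 0.138, adjusted p of 0.00117). Rps27a, which encodes ubiquitin fused to a ribosomal protein, was higher at 1 Hz (0.70 ± 0.228, adjusted p of 0.0201) and at 4 Hz (0.88 ± 0.229, adjusted p of 0.00291). The share of ribosomal protein counts was 6.24 ± 1.17% at 1 Hz and 6.85 ± 1.06% at 4 Hz, against 4.94 ± 0.29% in the controls.

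Of 18 cullin-RING partners, 0 were changed at 1 Hz, 2 were higher and 2 lower at 4 Hz, and 0 were changed at 10 Hz. At 4 Hz that is 22.2% of the list, against 25.1% of all tested genes, and at 1 Hz 0% against 14.9%. Cul1, the scaffold on which the F-box proteins sit, was at 144 ± 8.65 CPM in unstimulated tissues and 87.4 ± 8.46 CPM at 4 Hz (log2(fold change) -0.72 ± 0.0823, adjusted p of 1.57e-07). At 1 Hz Cul1 was also lower (-0.48 ± 0.0817, adjusted p of 6.95e-05), but under the fold threshold. Elob, which links Asb2 to cullin 5, was at 96.1 ± 7.92 CPM in unstimulated tissues and 136 ± 15.7 CPM at 4 Hz (0.50 ± 0.118, adjusted p of 0.000986). Of 29 tested genes among 32 other muscle ubiquitin ligases, 0 were higher and 2 lower at 1 Hz, 2 higher and 4 lower at 4 Hz, and 0 changed at 10 Hz. The shares of 6.9% and 20.7% at 1 and 4 Hz lay below the same backgrounds. Fbxw7, an F-box protein known for degrading cyclin E and Myc, was lower, at -0.98 ± 0.0968 at 1 Hz (adjusted p of 3.93e-08) and -1.07 ± 0.0977 at 4 Hz (adjusted p of 6.92e-09) on the log2 scale. Its libraries did not overlap the controls, and 8.58% and 14.7% of all tested genes had every library below the controls at 1 and 4 Hz. Asb16 was higher at 4 Hz, from 2.35 ± 0.622 to 3.77 ± 0.658 CPM (adjusted p of 0.00285).

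Deubiquitinases remove what the ligases add. Of 21, 2 were higher and 2 lower at 1 Hz, 3 higher and 3 lower at 4 Hz, and 0 changed at 10 Hz. The shares of 19% and 28.6% were near the 14.9% and 25.1% of all tested genes, which were also split between both directions. Usp2 was higher by 0.61 ± 0.11 at 1 Hz (adjusted p of 0.000133) and 0.75 ± 0.111 at 4 Hz (adjusted p of 5.84e-06). Usp10, which is known to stabilize p53, was lower, at -0.85 ± 0.143 (adjusted p of 6.36e-05) and -1.20 ± 0.145 (adjusted p of 4.44e-07). In both genes the 6 stimulated libraries lay outside the range of the controls at both frequencies. Of all tested genes, 5.55% at 1 Hz and 12.9% at 4 Hz had every library above that range, and 8.58% and 14.7% had every library below it.

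Of 19 tested genes among 21 regulators of the ligase genes, 4 were higher and 1 lower at 1 Hz, the same counts at 4 Hz, and 0 changed at 10 Hz. That is 26.3% at both frequencies, against 14.9% of all tested genes at 1 Hz and 25.1% at 4 Hz, and on log2(TPM + 1) the count at 1 Hz went from 5 to 1. Foxo1 and Foxo3 encode the FoxO factors known to drive Trim63 and Fbxo32. Foxo1 ran from 27.9 (median 30.8) to 36.3 CPM in the controls, from 42.1 (45.3) to 51.1 CPM at 1 Hz, 52.1 (57.6) to 64.1 CPM at 4 Hz, and 24.6 (29.4) to 35.4 CPM at 10 Hz. Its log2(fold change) was 0.58 ± 0.0833 at 1 Hz (adjusted p of 7.83e-06) and 0.90 ± 0.0835 at 4 Hz (adjusted p of 8.02e-09), and that of Foxo3 was 0.57 ± 0.0774 (adjusted p of 4.24e-06) and 0.72 ± 0.0776 (adjusted p of 7.28e-08). Both FoxO genes were higher in every library at 1 and 4 Hz than in any control, where 5.55% and 12.9% of all tested genes were. The part of the FoxO factors in the levels of the ligase genes was not tested. FoxO activity is set by phosphorylation and location in the cell, which mRNA levels do not show.

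Myog, which encodes myogenin, a factor known to raise Trim63 and Fbxo32 after denervation, was the lower one. It ran from 459 (median 590) to 599 CPM in the controls, from 182 (224) to 242 CPM at 1 Hz, 193 (203) to 217 CPM at 4 Hz, and 438 (495) to 507 CPM at 10 Hz. Its log2(fold change) was -1.34 ± 0.073 at 1 Hz (adjusted p of 1.23e-12) and -1.47 ± 0.0733 at 4 Hz (adjusted p of 1.54e-13), and -0.20 ± 0.0716 at 10 Hz (adjusted p of 0.409). At 10 Hz, 5 of 6 libraries of Myog lay within the range of the controls. The part of Myog in the levels of the ligase genes was not tested.

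Of 28 known substrates of the ligases, 1 was higher and 1 lower at 1 Hz, 4 higher and 2 lower at 4 Hz, and 0 higher and 1 lower at 10 Hz. The shares were 7.14% at 1 Hz and 21.4% at 4 Hz, below the 14.9% and 25.1% of all tested genes. Myod1, a target of atrogin-1, was lower, at -1.42 ± 0.0895 at 1 Hz (adjusted p of 2.45e-11) and -1.75 ± 0.0909 at 4 Hz (adjusted p of 1.89e-13). Irs2 was higher at 1 Hz by 1.19 ± 0.436 (adjusted p of 0.0371), where 5 of 6 libraries exceeded all controls over a range of 6.44 to 35.1 CPM. At 4 Hz, Irs2 was higher by 1.56 ± 0.437 (adjusted p of 0.00565) and Irs1 by 0.56 ± 0.152 (adjusted p of 0.00373). Myh2, the fast oxidative myosin heavy chain, was at 70.0 ± 12.1 CPM in unstimulated tissues and 33.3 ± 2.86 CPM at 10 Hz (-1.07 ± 0.195, adjusted p of 0.038). It was also lower at 4 Hz (-0.66 ± 0.193, adjusted p of 0.0067), with all 6 libraries below every control at 4 and 10 Hz, as in 14.7% and 0.864% of all tested genes. These are transcript levels of the substrates, and the proteins themselves were not measured.

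Of 21 tested genes among 22 other genes of muscle atrophy, 1 was higher and 3 lower at 1 Hz, 3 higher and 2 lower at 4 Hz, and 0 changed at 10 Hz. The shares of 19% and 23.8% were near the 14.9% and 25.1% of all tested genes. Sesn1, a FoxO- and p53-induced inhibitor of mTORC1 signaling, was higher by 0.61 ± 0.0877 at 1 Hz (adjusted p of 7.91e-06) and 0.69 ± 0.0881 at 4 Hz (adjusted p of 7.48e-07). Runx1, known to rise in denervated muscle, was lower, at -0.66 ± 0.106 (adjusted p of 3.65e-05) and -0.67 ± 0.106 (adjusted p of 1.44e-05). In the 4 and 1 Hz comparisons the median over this list was 0.26 and 0.15, against 0.061 and 0.041 over all tested genes. Of 26 genes outside the 10 that are named beside them and were found in the annotation, 21 overlap a gene on the opposite strand, and their counts were not checked further for strand.

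**Figure D5:**
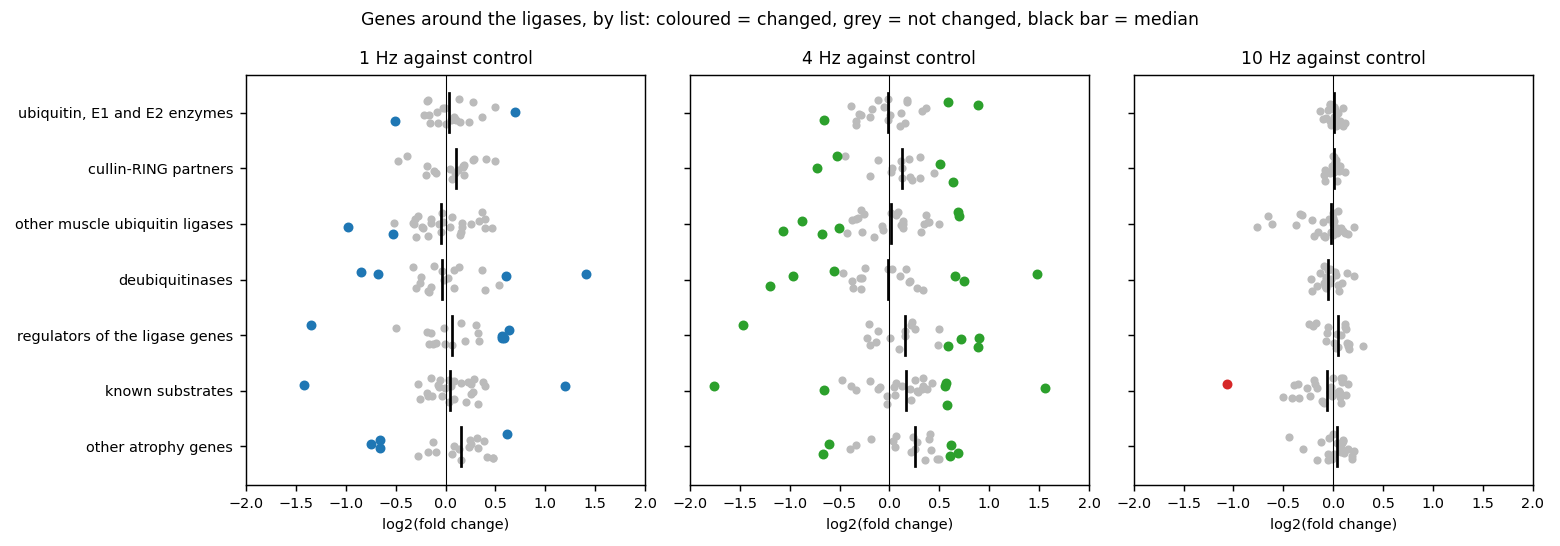
Log2(fold change) against the control of the tested genes of 7 lists at 1, 4, and 10 Hz; each point is 1 gene, colored where called changed and gray otherwise, and the black bar is the list's median. Every list except the cullin-RING partners at 1 Hz holds calls at 1 and 4 Hz, and at 10 Hz the only colored point is Myh2 at -1.07.

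Across the 24 libraries, other genes came close to the profile of single ligases. Likeness was measured as the root mean square difference of log2 CPM, each gene centered on its own control mean, with smaller values closer. Nearest to Trim63 were Clip4 (0.158), Trim54 (0.169), and Dusp27 (0.181), against a median of 0.523 over all tested genes. Nearest to Fbxo32 were Lratd2 (0.206), Lpin1 (0.214), and Tiparp (0.216), against a median of 0.635. Nearest to Fbxo40 were Camk2a (0.163), Ephb3 (0.19), and Dennd2c (0.191), against a median of 0.608. The neighbors of Fbxo32 were higher at 1 and 4 Hz and near 0 at 10 Hz (Lpin1 at 0.60, 0.87, and -0.064), while those of Trim63 and Fbxo40 were below the control at all 3 frequencies (Clip4 at -0.40, -0.32, and -0.38). These like directions follow from the choice of the nearest genes. No neighbor of one of these genes was a neighbor of another, which says little, since only the 3 nearest were kept for each.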

How the data were processed

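RNA of 24 mouse C2C12 libraries was compared, 6 for each of the unstimulated control and 1, 4, and 10 Hz, grouped by the sample titles. The authors mapped reads with the nf-core/rnaseq pipeline to GRCm39 and deposited, for each gene and library, salmon estimated counts that are not normalized, and TPM values that are divided by transcript length. The labels add that ribosomal RNA was depleted where RNA input was low, without saying in which libraries, so the part of this step in any difference was not tested. Estimated counts were rounded to whole numbers (6.15% were not whole within 0.001), filtered by filterByExpr (minimum count 10, minimum total 15), and scaled by TMM in edgeR 4.0.16 under R 4.3.3. One quasi-likelihood fit with robust dispersions gave all 6 comparisons, with Benjamini-Hochberg adjustment over 13315 genes. The biological coefficient of variation was 14.8%, which with 8052369 to 18159144 counts per library limits the smallest change that can be seen. The method was also run on simulated data, but no outcome of that run is given here. Summed myotube markers were compared by exact permutation tests.

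Alternatives were DESeq2 1.42.0, limma 3.58.1 on log2(TPM + 1) and log2(TPM + 0.1), keeping genes that reached 1 TPM in 6 libraries, or without that filter, RLE size factors, no filter, fits of 2 groups, a replicate block, scaling to myotube markers, and leaving out each library. Leaving out 3 libraries was added after seeing the data. The 10 genes and the 7 lists were chosen with earlier results of these data known. The text names all 10, the changed gene of smallest p per direction in each list and frequency, and the 3 genes nearest to Trim63, Fbxo32, and Fbxo40. Positions are from GENCODE M39, which holds 98.9% of the identifiers. No protein sequence was used here.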

Additional observations from a re-analysis of the deposited data

Results flagged for a closer look

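Each value below lay far from the other 5 libraries of its group by Dixon's criterion at the 95% level, which chance meets in about 1 of 20 groups, and 44 sets of values were checked. Fbxo40 was at 102.9 CPM in control replicate 6, against 79.1 to 84.9 CPM in the other controls. Trim63 was at 72.9 CPM in 4 Hz replicate 4, against 59.4 to 62.0 CPM in the others at 4 Hz. In 10 Hz replicate 3, Trim55 was at 51.8 CPM against 41.3 to 44.6 CPM, and Trim54 was at 66.1 CPM against 50.9 to 55.4 CPM. Without any 1 library, Fbxo40 at 10 Hz kept a log2(fold change) of -0.64 to -0.55.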

How the results depend on the processing

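Only 6 libraries per group and a spread of 14.8% between them limit which small changes can be seen. Of the 60 log2(fold change) values of the 10 ligase genes, 56 to 59 kept direction and call with RLE factors, without the count filter, with only 2 groups in the fit, with the replicate block, or with DESeq2, against 28 on log2(TPM + 1), 31 on log2(TPM + 0.1), 36 scaled to the myotube markers, and 42 of 50 without the 3 libraries of low TPM per CPM, which was chosen after seeing the data. The cause of the changes was not tested. On log2(TPM + 1), with or without its filter, the sign turned at 1 Hz against control Asb2 -0.042, at 10 Hz against control Trim55 0.12 and Fbxo30 -0.025, at 10 Hz against 4 Hz Trim63 0.064, Trim54 0.30, Fbxo40 0.18, and Fbxo21 0.29, at 10 Hz against 1 Hz Trim63 0.13 and Fbxo21 0.21, and at 4 Hz against 1 Hz Trim55 -0.13, Trim54 -0.0048, and Fbxo21 -0.082. On log2(TPM + 0.1), the sign turned at 1 Hz against control Asb2 -0.044, at 10 Hz against control Trim55 0.12 and Fbxo30 -0.025, at 10 Hz against 4 Hz Trim63 0.066, Trim54 0.31, Fbxo40 0.19, and Fbxo21 0.32, at 10 Hz against 1 Hz Trim63 0.13 and Fbxo21 0.23, and at 4 Hz against 1 Hz Trim55 -0.13, Trim54 -0.0051, and Fbxo21 -0.086. Scaled to the myotube markers, the sign turned at 1 Hz against control Nedd4 0.011, at 10 Hz against control Trim55 0.12, Fbxo32 0.064, and Fbxo21 0.11, at 10 Hz against 4 Hz Trim63 0.16, Trim54 0.39, Fbxo40 0.23, and Fbxo21 0.36, at 10 Hz against 1 Hz Trim63 0.11 and Fbxo21 0.13, and at 4 Hz against 1 Hz Trim63 -0.044, Trim55 -0.20, Trim54 -0.098, Fbxo32 -0.044, and Fbxo21 -0.24. Without the 3 libraries, the sign turned at 1 Hz against control Fbxo21 0.10 and Nedd4 0.15, at 4 Hz against control Fbxo21 0.0028, at 10 Hz against 1 Hz Trim63 0.093 and Nedd4 -0.13, and at 4 Hz against 1 Hz Fbxo21 -0.099. With DESeq2, the sign turned at 10 Hz against 4 Hz Trim54 0.019, and at 10 Hz against 1 Hz Fbxo21 0.0046. With RLE factors, the sign turned at 10 Hz against 4 Hz Trim54 0.014. Without the count filter, the sign turned at 10 Hz against control Fbxo30 -0.0014, at 10 Hz against 4 Hz Trim54 0.025, and at 10 Hz against 1 Hz Fbxo21 0.016. With only 2 groups in the fit, the sign turned at 10 Hz against 4 Hz Trim54 0.016.

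The number of changed ligase genes at 10 Hz against control, 1 as reported, was 2 with DESeq2, without the count filter, and with only 2 groups in the fit, and 0 on both TPM scales and scaled to the myotube markers. At 4 Hz against control it went from 3 to 4 on log2(TPM + 0.1) (1 higher and 3 lower), 5 scaled to the myotube markers, and 7 by adjusted p alone. At 10 Hz against 4 Hz it went from 4 to 1 on log2(TPM + 1) and scaled to the myotube markers, and to 2 on log2(TPM + 0.1), and at 10 Hz against 1 Hz from 3 to 0 on log2(TPM + 1) and 1 on log2(TPM + 0.1). On log2(TPM + 1), the lists moved at 1 Hz to 1 call for ubiquitin, E1, and E2, 2 for the cullin-RING partners, 5 for the other ligases, 1 for the regulators, and 1 for the substrates, at 4 Hz to 6 for ubiquitin, E1, and E2 and 3 for the regulators, and at 10 Hz to 0 for the substrates. Without the count filter they moved to 1 for ubiquitin, E1, and E2, 1 for the cullin-RING partners, and 1 for the substrates at 1 Hz, and 0 for the substrates at 10 Hz. Over the whole table, 4 Hz against 1 Hz gave 0 calls, 1 with DESeq2, 1 with the replicate block, and 133 without the 3 libraries, and 10 Hz against control gave 5 calls, 23 with DESeq2, 23 with only 2 groups, 13 without the 3 libraries, 3 with the replicate block, and 0 on log2(TPM + 1). Summed TPM of the myotube markers differed from the control by -0.14 at 1 Hz, -0.0061 at 4 Hz, and -0.19 at 10 Hz.

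Leaving out each library in turn, 664 of 720 values kept direction and call, 7 passed the threshold in addition, and 49 turned sign, over the ranges at 10 Hz against control Nedd4 -0.0071 to 0.060, Fbxo32 -0.23 to 0.067, Fbxo30 -0.039 to 0.087, and Fbxo21 -0.073 to 0.0024, at 4 Hz against control Fbxo21 -0.050 to 0.044, at 10 Hz against 1 Hz Fbxo21 -0.052 to 0.050, Fbxo40 -0.021 to 0.13, Trim63 -0.16 to 0.029, and Nedd4 -0.015 to 0.12, at 4 Hz against 1 Hz Nedd4 -0.13 to 0.021, Cblb -0.11 to 0.017, Trim54 -0.0058 to 0.21, Fbxo30 -0.069 to 0.041, and Fbxo21 -0.031 to 0.091, at 1 Hz against control Nedd4 -0.089 to 0.034 and Fbxo21 -0.091 to 0.0013, at 10 Hz against 4 Hz Trim54 -0.046 to 0.065 and Fbxo21 -0.086 to 0.0017. The changed ligase genes then numbered 1 to 2 at 10 Hz against control, 2 without control replicate 2, where Trim63 was at -0.59. The marker sum ranged from -0.066 to 0.12 at 1 Hz, 0.22 to 0.29 at 4 Hz, where it was not called without any one of control replicates 2 to 5 or 4 Hz replicates 1, 3, and 4, and -0.19 to -0.11 at 10 Hz, called without 10 Hz replicate 3.

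The replicate numbers share no stated animal, batch, or day, and deviations of libraries with the same number correlated over 0.1 in at most 1 of 6 pairs per comparison, so the numbers were not taken to pair the libraries. With the replicate number as a block, the sign turned at 4 Hz against control Fbxo21 0.0017, and at 10 Hz against 4 Hz Trim54 0.0091. The block moved no call of the 10 genes.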
